A study of Mus musculus with 12 samples.

Results

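The comparison described here set 3 SwissOF1 (OF1) mice with 1 disrupted copy of Engrailed-1 (En1) against 3 OF1 wild type (WT) mice. It used 6 of the 12 libraries of the series, chosen by the labelled strain and genotype. The other 6 libraries are the same genotypes in C57Bl/6J (C57) mice. Their values are printed only where the strains are set side by side. All 12 libraries entered the choice of genes to test, the scaling and the estimate of spread in the main fits. In the hemizygous mice, OF1-En1+/-, 1 En1 allele carries a LacZ insertion, and they came from WT females mated to En1+/- males. The WT mice carry neither the insertion nor any other labelled allele. All mice were labelled as males of 1 week of age. Nigral tissue was taken by laser capture from cresyl violet stained cryosections at the level of the substantia nigra pars compacta (SNpc), so each library holds all the cells in the captured area and not one sorted cell type. Each library comes from 1 mouse, with n = 3 per group.

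Dopaminergic neurons of the SNpc project to the striatum and are the cells lost in Parkinson's disease. Engrailed-1 is a homeodomain transcription factor that these neurons need for their survival from the embryo onward, and they carry a characteristic set of transcripts for dopamine synthesis and uptake, such as Th, tyrosine hydroxylase, and Slc6a3, the dopamine transporter. The captured tissue also holds GABAergic neurons, glia and vessels, and the subthalamic nucleus, red nucleus and thalamus lie close by. In bulk tissue, fewer cells of a type and less RNA per cell cannot be told apart.

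The depth was 13538864 to 30927714 estimated reads per OF1 library. Values below are TMM-normalized counts, which are estimated read counts scaled to one effective library size, and they are always given in the order SW31, SW7 and SWG for OF1 WT and SW21, SW22 and SWB for OF1-En1+/-. En1 itself (chromosome 1, 120530108 to 120535721, GRCm39) had 9.44, 15.2 and 1.11 normalized counts in OF1 WT and 0, 691 and 0 in OF1-En1+/- mice. Its level therefore gives no check of the genotype labels. Libraries were prepared without strand information, so reads of a gene and of an overlapping antisense gene cannot be told apart.

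The libraries differed in the neurons they held, and this crossed the genotypes. Slc6a3 had 16.5, 104 and 28.9 normalized counts in OF1 WT and 22.9, 205403 and 30.4 in OF1-En1+/- mice. Th had 44.8, 1022 and 151 and 8.80, 85968 and 81.1. The defining markers of the labelled tissue were thus abundant in SW22 and low in the other 5 libraries, and Pitx3, a transcription factor of midbrain dopaminergic neurons, was at 0, 0 and 0 and 3.52, 1049 and 0. Over the 27 dopaminergic markers tested, the summed level was 17298, 13248 and 20329 in WT and 6413, 474707 and 12571 in hemizygous libraries. The median log2 fold change of the list was 2.90 with all 6 libraries and -0.95 without SW22.

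A different set of neuron markers was high in a pair of WT libraries. Foxp2, a forkhead factor with a role in motor circuits, had 13764, 360.1 and 15877 normalized counts in OF1 WT and 217, 2228 and 3037 in OF1-En1+/- mice. Barhl2, a homeobox gene of the posterior hypothalamus and subthalamus, had 370.5, 0 and 684 and 7.04, 4.65 and 0. SW31 and SWG carried both at their highest levels, and SW7 was within the range of the hemizygous libraries. SW7 instead had the hypothalamic factor Nkx2-1 at 279 and the opioid precursor Penk at 7524, where the other libraries had at most 7.08 and 1241.

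The hemizygous libraries also differed among themselves. SW21 held the most Gad2, a GABA-synthesizing enzyme, with 37597, 6769 and 9756 in the hemizygous and 514, 8948 and 597 in the WT libraries. SW22 and SWB held Tcf7l2, a Wnt effector abundant in thalamic and some midbrain neurons, at 18074 and 22514 against at most 955 in the other 4. SWB alone was rich in Slc17a7, a vesicular glutamate transporter, at 2086. The part of these differences in tissue in each result below was not tested. Results are given without single libraries where that matters.

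**Figure D1:**
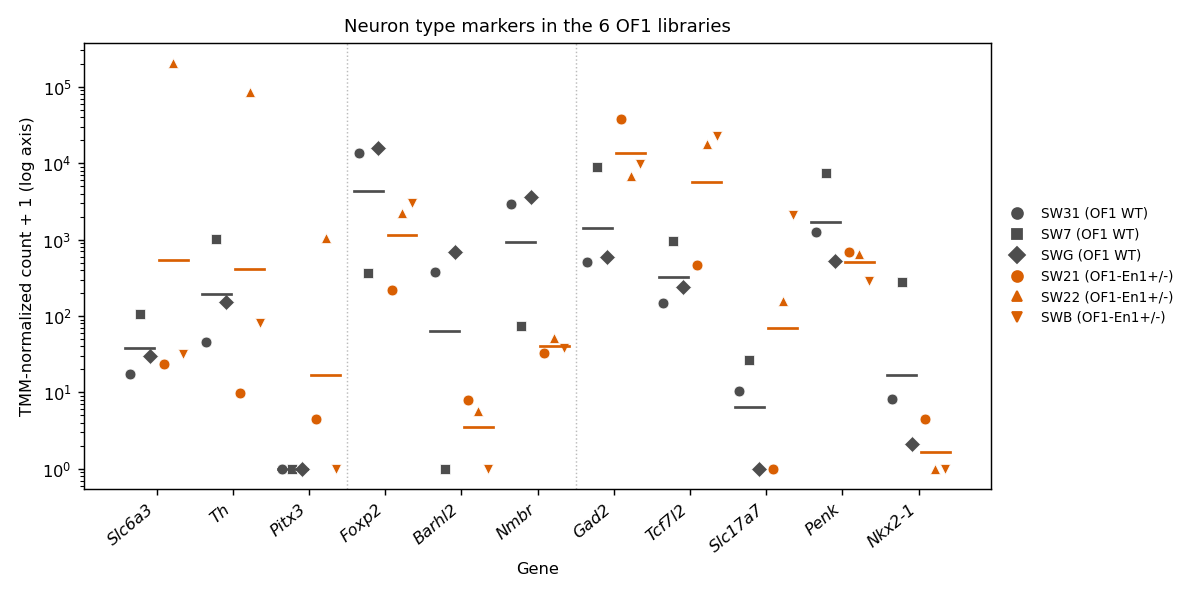
Normalized counts (plus 1, log axis) of 11 neuron type markers in each OF1 library, with grey symbols for OF1 WT and orange for OF1-En1+/-, and lines for the means on the log scale. Slc6a3, Th and Pitx3 stand out in SW22 only, and Foxp2, Barhl2 and Nmbr in SW31 and SWG.

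Between OF1-En1+/- and OF1 WT, edgeR called 0 of 18017 genes at an adjusted p of 0.05 (0%), and the smallest adjusted p was 0.425. At an unadjusted p under 0.05, 847 genes were higher (4.70%) and 827 lower (4.59%) in hemizygous mice. DESeq2, the tool of the study, called 111 higher (0.675%) and 95 lower (0.578%) of the 16444 genes to which it gave an adjusted p. Limma voom called 0, with 3122 genes at an unadjusted p under 0.05. All 3 hemizygous values lay above all 3 WT values for 1384 genes (7.68%) and below them for 1449 (8.04%). No gene below passed the edgeR threshold unless this is stated, and higher and lower are used for values, with the DESeq2 adjusted p where it made a call.

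The DESeq2 calls turned on single libraries. Leaving out SWG left 50 calls, of which 35 were among the original 206, and leaving out SW7 gave 524, with 154 of the 206 among them. Without SW22 there were 310, with 124 among them. Only 13 genes were called with all libraries and also without each of the 6 in turn. They were Numb, Inpp4b, Ppic, Ccn2 and Mmel1, which were higher in hemizygous mice, and Nos1, Tac1, Dact1, Plxna4, Smap2, Slc7a14, Tll2 and Ccn3, which were lower. In 12 of these 13 the groups did not overlap. The exception was Ccn3, a secreted matricellular protein, with 37310.2, 251 and 26316 normalized counts in OF1 WT and 199, 307 and 158 in OF1-En1+/- mice.

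Most markers of blood vessel endothelium had higher values in hemizygous mice. Of 30 endothelial markers tested, 25 were higher and 5 lower, with a median log2 fold change of 0.66 against -0.01 over all genes. DESeq2 called 4 of them higher, beside 0.675% of all genes with an adjusted p. In 6 all hemizygous values exceeded all WT values, beside 7.68% of all tested genes. On leaving out 1 library the median ranged from 0.41, without SWG, to 0.97, without SW7. The calls higher became 0 without SWG, 2 without SW21, 2 without SW22 and 6 without SW7 or without SWB. The summed level of the list ranged from 40197 to 57317 in WT and from 54389 to 70593 in hemizygous libraries, so the groups overlapped in the sum.

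Aplnr (chromosome 2, 84966569 to 84970267), the endothelial receptor of the peptides apelin and Elabela, had 363, 367 and 251 normalized counts in OF1 WT and 704, 1844 and 1285 in OF1-En1+/- mice. The groups did not overlap, and the log2 fold change was 1.97 ± 0.41 (SE) with an edgeR adjusted p of 0.444 and a DESeq2 adjusted p of 0.0016. Nos3, the endothelial nitric oxide synthase, had 321, 286 and 182 in WT and 618, 619 and 558 in hemizygous mice, a log2 fold change of 1.19 ± 0.27 with a DESeq2 adjusted p of 0.00652. Slco1c1, a thyroid hormone transporter of the blood-brain barrier, had 2355, 2422 and 1359.9 and 3917, 5053 and 4682, and S1pr1, a sphingosine-1-phosphate receptor, 1192, 1645 and 1055 and 2836, 3227 and 1802. In both genes the 3 hemizygous libraries were the highest. Their DESeq2 adjusted p were 0.00858 and 0.0395.

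In this direction, 15 protein-coding genes were taken by smallest p among those without overlap and with an OF1 mean of at least 50. Of these, 3 that the endothelial list does not hold are known from brain vessels, and they were grouped here after their values were seen. Adgrl4, an adhesion receptor of endothelial cells, had 481, 452 and 312 normalized counts in OF1 WT and 1644, 1644 and 758 in OF1-En1+/- mice, a log2 fold change of 1.70 ± 0.35. Car4, a carbonic anhydrase on the capillary surface, had 472, 857 and 496 and 1255, 1767 and 3224, a log2 fold change of 1.78 ± 0.39. Slc40a1, the iron exporter ferroportin, had 864, 450.1 and 506 and 1535, 2123 and 1112, a log2 fold change of 1.40 ± 0.30. DESeq2 gave these 3 genes adjusted p of 0.00193, 0.00294 and 0.00325. Slc16a1, a lactate and ketone body transporter of the barrier that stands in the glycolysis list, was at 3811, 2102 and 1909 in WT and 5141, 7873 and 5065 in hemizygous mice with a DESeq2 adjusted p of 0.0309.

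Other endothelial genes showed no separation. Cldn5, a tight junction protein that defines the barrier, had 1272, 1673 and 739 normalized counts in OF1 WT and 1597, 2439 and 1808 in OF1-En1+/- mice, so that SW7 exceeded SW21. Tie1, a receptor tyrosine kinase of endothelium, overlapped as well, with 241, 351 and 178 and 702, 751 and 298. Of the 5 genes of the list that were lower, DESeq2 called 1. It was Esm1, a proteoglycan secreted by sprouting endothelial tip cells, at 491, 31.6 and 187 in WT and 5.28, 4.65 and 0 in hemizygous mice, with a DESeq2 adjusted p of 0.0311. Mural cell and fibroblast markers had a median of 0.41, 17 of 22 being higher, and DESeq2 called 0 of them. That median was 0.02 without SWG and 0.12 without SW21.

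Most transcripts of cell division had higher values in hemizygous mice. Of 82 genes of the list, 64 were higher and 18 lower, with a median log2 fold change of 0.51. The median was 0.48 without SW22 and 0.53 without SW7, and the lowest and highest values on leaving out 1 library were 0.39, without SWG, and 0.59, without SW31. The groups did not overlap in 23 genes in this direction and 2 in the other, beside 7.68% and 8.04% of all tested genes. DESeq2 called Ccnb2, Ube2c, Rmi1 and Gins3 higher and no gene lower, beside 0.675% and 0.578% of all genes with an adjusted p. The number called higher was 0 without SWG, 1 without SW21 and without SWB, and 9 without SW7. These transcripts mark dividing cells, which in this tissue at 1 week include glial precursors and vascular cells.

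Ccnb2 (chromosome 9, 70314966 to 70328874), a cyclin of mitosis, had 73.1, 50.3 and 53.3 normalized counts in OF1 WT and 173, 235 and 156 in OF1-En1+/- mice. The lowest hemizygous library was 2.14 times the highest WT library, and the log2 fold change was 1.68 ± 0.39 with a DESeq2 adjusted p of 0.00647. Ube2c, a ubiquitin-conjugating enzyme of the anaphase-promoting complex, had 219, 201 and 104 and 583, 349 and 524, a log2 fold change of 1.48 ± 0.37 with a DESeq2 adjusted p of 0.0208. Gins3, a subunit of the replication helicase, had 63.7, 147 and 81.0 and 259, 244 and 392, with a DESeq2 adjusted p of 0.0311. Rmi1, a partner of the Bloom helicase, had the tightest values, 828, 782 and 755 and 1327, 1181 and 1254, with a log2 fold change of 0.67 ± 0.18 and a DESeq2 adjusted p of 0.0127.

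Members that neither edgeR nor DESeq2 called in the fits made here also separated. Smc2, a condensin subunit, had 245, 175 and 209 normalized counts in OF1 WT and 363, 353 and 340.0 in OF1-En1+/- mice. Birc5, a protein of the chromosomal passenger complex, had 113, 80.7 and 52.2 and 149.6, 207 and 180.1, and Mcm3, a replication helicase subunit, 127, 219.8 and 123 and 259, 384 and 509. In each of these 3 genes the lowest hemizygous library lay above the highest WT library. Rfc5, a clamp loader subunit, was lower in hemizygous mice at 762, 1209 and 789 and 338, 599.9 and 588.

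Promoters of cell division genes often hold CCAAT boxes and an element with the letters TTTGAA, both of which are known from genes switched on late in the cell cycle. The 250 bases before the annotated start of 3 of the 4 called genes are shown because these genes were higher together, read on the strand of the gene from RefSeq (GRCm38.p6), with every CCAAT and TTTGAA in capitals on either strand (the reverse reads ATTGG and TTCAAA). Rmi1 has 2 annotated starts and is not shown, and its windows held 2 and 0 CCAAT and no TTTGAA. The windows shown are chr9:70421555-70421804 (minus strand), chr2:164769679-164769928 (plus strand) and chr8:95633309-95633558 (plus strand).
Ccnb2: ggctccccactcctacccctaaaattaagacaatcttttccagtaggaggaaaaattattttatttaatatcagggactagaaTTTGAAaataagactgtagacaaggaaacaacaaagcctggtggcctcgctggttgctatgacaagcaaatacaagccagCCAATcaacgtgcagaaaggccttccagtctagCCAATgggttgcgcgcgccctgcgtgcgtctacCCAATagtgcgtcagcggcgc
Ube2c: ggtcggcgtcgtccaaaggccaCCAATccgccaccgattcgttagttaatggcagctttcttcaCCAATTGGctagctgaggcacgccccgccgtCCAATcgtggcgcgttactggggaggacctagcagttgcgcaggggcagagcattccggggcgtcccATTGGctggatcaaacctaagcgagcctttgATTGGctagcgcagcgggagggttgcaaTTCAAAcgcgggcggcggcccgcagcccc
Gins3: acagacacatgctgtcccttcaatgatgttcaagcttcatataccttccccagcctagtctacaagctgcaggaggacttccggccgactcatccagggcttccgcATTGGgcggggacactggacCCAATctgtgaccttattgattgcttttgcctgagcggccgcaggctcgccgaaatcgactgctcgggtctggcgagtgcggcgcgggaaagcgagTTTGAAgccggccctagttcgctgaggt
The Ccnb2 window held 3 CCAAT and 1 TTTGAA, Ube2c held 6 and 1, where one forward and one reverse CCAAT share bases, and Gins3 held 2 and 1. At least 1 CCAAT was found in 33.8% and at least 1 TTTGAA in 16.0% of all 32851 windows of this length, and both in 5.55%. Among the 76 windows of the 68 list members that matched, the shares were 64.5%, 25% and 22.4%. A match describes these letters and is not a binding site.

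Genes of leukocyte migration and adhesion followed the same direction. Of 53 tested of 71 listed, 40 were higher and 13 lower in hemizygous mice, and the median log2 fold change was 0.44. DESeq2 called 7 higher and 0 lower, beside 0.675% and 0.578% of all genes with an adjusted p. The number called higher was 0 without SWG, 1 without SW31 and without SW21, 3 without SWB, 4 without SW22 and 8 without SW7. The study named leukocyte migration among the processes of its own calls on these libraries, so the list is not independent evidence of its direction. S1pr1, described above, is also a member.

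Vav3, an exchange factor for small GTPases, had 59.0, 44.4 and 9.99 normalized counts in OF1 WT and 447, 139.5 and 376 in OF1-En1+/- mice. The log2 fold change was 3.11 ± 0.80 with a DESeq2 adjusted p of 0.00793. Icam1, the endothelial ligand of leukocyte integrins, had 75.5, 55.0 and 81.0 and 243, 309 and 197, a log2 fold change of 1.83 ± 0.48 with a DESeq2 adjusted p of 0.031. Jam2, a junctional adhesion molecule, had 1357, 1156 and 1091 and 2949, 2251 and 1655, and Tirap, an adaptor of Toll-like receptors, 96.7, 87.7 and 63.3 and 188, 246 and 374. Their DESeq2 adjusted p were 0.0493 and 0.0258, and the groups did not overlap in either.

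A pair of further members were low and uneven. Anxa1, annexin A1, an anti-inflammatory phospholipid-binding protein, had 14.2, 18.7 and 17.8 normalized counts in OF1 WT and 72.2, 426 and 88.9 in OF1-En1+/- mice. SW22 was far above the other hemizygous libraries, and Anxa1 also marks a subset of dopaminergic neurons. The DESeq2 adjusted p was 0.0377 with all libraries and 0.395 without SW22. C5ar1, the receptor of complement C5a, was at 0 in all WT libraries and at 42.3, 2.33 and 78.8 in the hemizygous ones. Microglial markers had a median log2 fold change of 0.26, 20 of 23 being higher and DESeq2 calling 0. That median was 0.07 without SW31, 0.10 without SW22 and 0.65 without SW7. P2ry12, the microglial ADP receptor, had 882, 949 and 715 in WT and 1570.4, 1756 and 1147 in hemizygous mice, with a DESeq2 adjusted p of 0.0511.

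**Figure D2:**
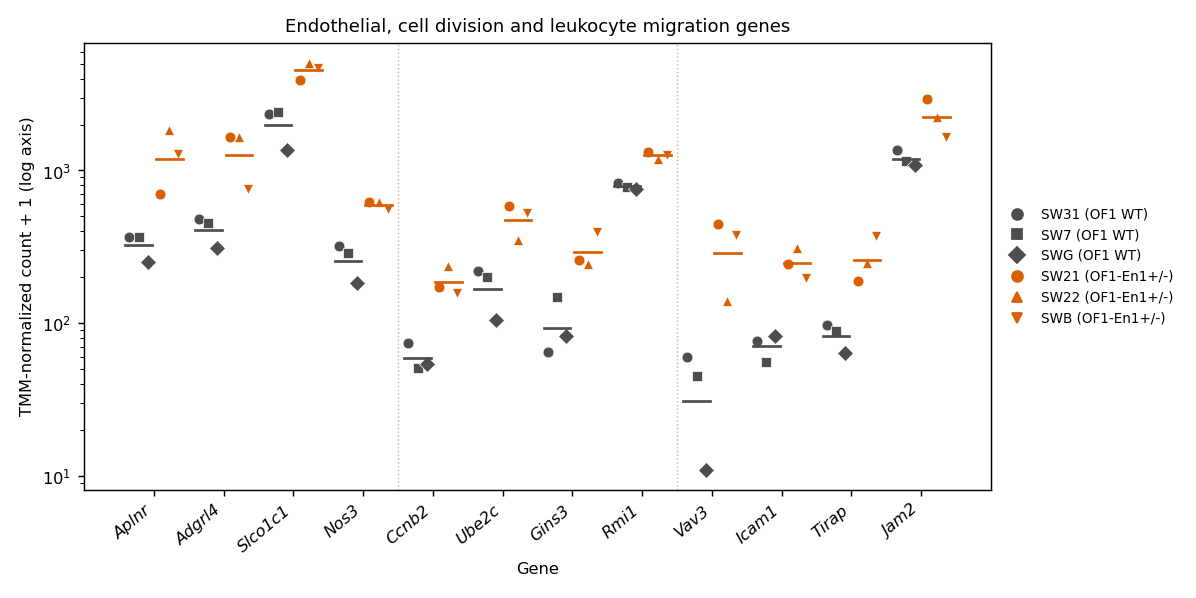
Normalized counts (plus 1, log axis) of 4 vessel genes, 4 cell division genes and 4 leukocyte migration genes in each OF1 library, with grey symbols for OF1 WT and orange for OF1-En1+/-, and lines for the means on the log scale. In all 12 genes shown the 3 hemizygous libraries lie above the 3 WT libraries. For the 4 vessel genes and Ccnb2 this was a condition of their choice, and Jam2 was chosen after its values were seen.

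Numb (chromosome 12, 83840808 to 83968997), an endocytic adaptor that inhibits Notch signalling and is divided unequally between daughter cells, was higher in every hemizygous library. It had 278, 249 and 309.7 normalized counts in OF1 WT and 727, 725 and 621 in OF1-En1+/- mice. The log2 fold change was 1.32 ± 0.27 with an edgeR adjusted p of 0.444 and a DESeq2 adjusted p of 0.002. Of the 33 genes of the Notch list, 23 were lower, with a median of -0.28, and -0.12 without SW7, and Numb was the one member called higher. Dtx1, a Notch-binding ubiquitin ligase, was the one called lower, at 1036, 1509 and 1252 in WT and 687, 777 and 748 in hemizygous mice with a DESeq2 adjusted p of 0.0498. The shares called over all genes with an adjusted p were 0.675% higher and 0.578% lower. Dll3, a Notch ligand that acts within the cell, was lower in all 3 hemizygous libraries, at 269, 388 and 319 and 153, 114 and 128, and DESeq2 gave it 0.0628.

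Several other genes that were higher belong to no single process. Inpp4b, a phosphoinositide phosphatase, had 116, 246 and 199 normalized counts in OF1 WT and 609, 765 and 548 in OF1-En1+/- mice, a log2 fold change of 1.78 ± 0.37. Ppic, the cyclophilin C prolyl isomerase, had 613, 617 and 397 and 1187, 1198 and 1290.2, with a log2 fold change of 1.18 ± 0.23. Ccn2, a matricellular protein induced by the Hippo pathway factors YAP and TAZ, had 11.8, 76.0 and 35.5 and 329, 207 and 233, a log2 fold change of 2.61 ± 0.57. These 3 genes kept their DESeq2 call without each library in turn. Creb3l2, a transcription factor of the endoplasmic reticulum, was at 73.1, 53.8 and 88.8 in WT and 282, 274 and 188 in hemizygous mice. Coch, the matrix protein cochlin, was at 866.0, 571.7 and 643.9 and 5664, 1023 and 4188, and Cmtm6, a membrane protein that stabilizes PD-L1, at 1137, 827 and 774 and 2035, 1979 and 1524. Arhgap18, a GTPase-activating protein, was at 295, 163 and 214 and 489, 507 and 553. DESeq2 adjusted p of these 4 genes were 0.00458, 0.00154, 0.00756 and 0.0033.

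Mmel1, a membrane metalloendopeptidase of the neprilysin family, was at 0 in all 3 WT libraries and at 58.1, 169.7 and 54.0 normalized counts in the hemizygous ones. Olfm3, an olfactomedin protein of synapses, had 439, 1348 and 429 in WT and 3607, 6206 and 4030.5 in hemizygous mice, a log2 fold change of 2.64 ± 0.66 with a DESeq2 adjusted p of 0.00213. Tmem232 had 7.08, 0 and 0 and 17.6, 484 and 55.2, and Rd3l 0, 0 and 0 and 21.1, 2.33 and 562. In Tmem232 most of the hemizygous total came from SW22, and in Rd3l from SWB.

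Neuropeptide genes were lower more often than higher. Of 57 tested of 72 listed, 36 were lower and 21 higher in hemizygous mice, and the median log2 fold change was -0.61. Without SW7 the median was 0.17, and without SW22 it was -1.18, so that the sign of the median turned without SW7. DESeq2 called 4 lower, Tac1, Sct, Ucn3 and Cga, and 2 higher, Nms and Cck. Over all genes with an adjusted p the shares were 0.578% lower and 0.675% higher. The calls lower were 1 without SWG and 7 without SW22.

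Tac1 (chromosome 6, 7554120 to 7565834), the precursor of substance P and neurokinin A, had 10049.6, 6609 and 4361 normalized counts in OF1 WT and 567, 495 and 122 in OF1-En1+/- mice. The lowest WT library was 7.69 times the highest hemizygous one, and the log2 fold change was -4.16 ± 0.85 with an edgeR adjusted p of 0.444 and a DESeq2 adjusted p of 0.00024. Tac1 is also abundant in subthalamic neurons. Sct, the peptide hormone secretin, had 160.5, 105 and 189 and 12.3, 34.9 and 34.9, a log2 fold change of -2.45 ± 0.55 with a DESeq2 adjusted p of 0.00291. Ucn3, the stress peptide urocortin 3, had 595, 91.2 and 142 and 0, 9.30 and 0.

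Other peptide values rested on 1 or 2 libraries. Cga, the shared subunit of pituitary glycoprotein hormones, was at 96.7, 0 and 259 normalized counts in WT and 0 in all hemizygous libraries. Cck, cholecystokinin, which some dopaminergic and thalamic neurons express, had 49.6, 233 and 76.6 in WT and 70.4, 1011 and 14666 in hemizygous mice, so that SW21 lay within the WT range. The DESeq2 adjusted p of Cck was 0.0184, and it was 0.396 without SWB. Nts, neurotensin, was highest in SW31 and SWG, with 28396, 3864 and 27429 and 715, 2735 and 496. Nms, neuromedin S, was at 0 in WT and 10.6, 11.6 and 48.4 in hemizygous libraries.

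Receptors of peptides differed in both directions, 34 of 64 being higher with a median log2 fold change of 0.09. Without SW22 the median was -0.36 and without SW7 0.67. Bdkrb2, the bradykinin B2 receptor, had 283, 178 and 374 normalized counts in OF1 WT and 47.5, 55.8 and 63.0 in OF1-En1+/- mice, a log2 fold change of -2.31 ± 0.46 with a DESeq2 adjusted p of 0.00151. Kiss1r, the kisspeptin receptor, was at 363, 235 and 495 and 118, 142 and 95.7, with a DESeq2 adjusted p of 0.0322. Both separated with SW7 among the higher libraries, which for Bdkrb2 was a condition of its choice. Nmbr, the neuromedin B receptor, was at 2952, 72.5 and 3631 and 31.7, 51.2 and 37.2, high in SW31 and SWG only. Vipr2, a receptor of vasoactive intestinal peptide, was higher in hemizygous mice, at 11.8, 32.7 and 68.8 and 279.9, 146 and 510.0, with a DESeq2 adjusted p of 0.00344.

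Genes of glutamate reception differed between subunits. The list of 40 tested receptors and auxiliary subunits had a median log2 fold change of -0.35, with 22 lower and 18 higher, and the median was -0.16 without SW21. Gria1 (chromosome 11, 56902153 to 57221080), a pore subunit of AMPA receptors, had 10897, 3579 and 12100.4 normalized counts in OF1 WT and 1891, 2146 and 1441 in OF1-En1+/- mice. The WT libraries were uneven but all above the hemizygous ones, and the log2 fold change was -2.27 ± 0.49 with an edgeR adjusted p of 0.444 and a DESeq2 adjusted p of 0.00108.

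The AMPA subunits can be compared in TPM, a share of transcripts corrected for length, which allows levels of different genes to be set side by side. Gria1 had 84.3, 23.1 and 87.9 TPM in WT and 14.7, 16.6 and 10.2 TPM in hemizygous mice. Gria4, another pore subunit, had 39.5, 31.3 and 33.4 and 66.4, 53.4 and 75.4 TPM, and Gria3 had 9.79, 10.7 and 12.7 and 30.4, 20.3 and 13.5 TPM, so that both were higher in all 3 hemizygous libraries. Gria2, the subunit that makes the channel impermeable to calcium, had 71.8, 67.9 and 73.6 and 53.2, 114 and 102 TPM and overlapped. In WT mice SW31 and SWG the Gria1 level exceeded that of Gria4, and in SW7 and all hemizygous mice it was below it. No tool called Gria3 or Gria4, with DESeq2 adjusted p of 0.267 and 0.147.

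Neto2, an auxiliary subunit of kainate receptors, had 7348, 799.7 and 4963 normalized counts in OF1 WT and 908, 1025 and 764 in OF1-En1+/- mice. SW7 lay within the hemizygous range, and the DESeq2 adjusted p was 0.0157. Grik5, a kainate receptor subunit, had 368, 459 and 396 and 183, 184 and 186, and the groups did not overlap. Shisa6, an auxiliary AMPA receptor protein, was higher in hemizygous mice at 49.6, 106 and 26.6 and 96.8, 330.2 and 531, with SW21 below SW7. Gabra4, a GABA-A receptor subunit, was also higher, at 517, 371 and 814 and 1572, 2555 and 2846, with a log2 fold change of 2.05 ± 0.50 and a DESeq2 adjusted p of 0.00652.

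Nos1 (chromosome 5, 117918971 to 118096905) is the neuronal nitric oxide synthase. It had the smallest p among the lower protein-coding genes with no overlap and an OF1 mean of at least 50. It had 3619.6, 2240.1 and 4293 normalized counts in OF1 WT and 431, 253 and 526 in OF1-En1+/- mice. The lowest WT library, SW7, was 4.26 times the highest hemizygous one, and the log2 fold change was -3.06 ± 0.55 with an edgeR adjusted p of 0.444 and a DESeq2 adjusted p of 8e-06. Nos1 belongs to the subthalamic list, whose 16 tested genes had a median of -2.42. Ntng2, the membrane ligand netrin-G2 and also of this list, had 406, 66.6 and 574 and 0, 4.65 and 3.38. Nos1 and Tac1 were high in SW7 as well as in SW31 and SWG, whereas Ntng2 in SW7 was well below its level in those libraries.

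Genes of the presynapse and of membrane excitability were lower in part. Rph3a, a synaptic vesicle effector of Rab3, had 3025, 1321 and 4325 normalized counts in OF1 WT and 921, 784 and 637 in OF1-En1+/- mice, a log2 fold change of -1.88 ± 0.39 with a DESeq2 adjusted p of 0.00154. It was the one gene called among the 51 of the vesicle release list, whose median was -0.15. The shares called over all genes with an adjusted p were 0.578% lower and 0.675% higher. Nrxn2, a presynaptic adhesion molecule, had 1260.0, 1495 and 1081 and 648, 505 and 694, and Slc12a5, the chloride exporter KCC2 of mature neurons, 5314, 4791 and 5722 and 3405, 2667 and 2907. Their log2 fold changes were -1.05 ± 0.24 and -0.81 ± 0.19, and DESeq2 called both, at 0.00871 and 0.0151.

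Of 32 voltage-gated sodium and calcium channel genes, 25 were lower, with a median log2 fold change of -0.47, and DESeq2 called 0. The groups did not overlap in 9 of them in this direction, beside 8.04% of all tested genes. Cacnb3, an auxiliary calcium channel subunit, was among them. It had 6277, 6456 and 8004 normalized counts in WT and 1822, 3588 and 4319.8 in hemizygous mice. Scn4b, an auxiliary sodium channel subunit, went the other way, at 11.8, 70.1 and 0 and 373, 198 and 205. The 64 potassium channel genes had a median of -0.15 and 0 DESeq2 calls. Hpcal1, a neuronal calcium sensor, had 8908, 8834 and 9496 and 1799, 4439 and 1034, with a log2 fold change of -1.90 ± 0.50 and a DESeq2 adjusted p of 0.0142.

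Plxna4 (chromosome 6, 32121203 to 32565193), a semaphorin receptor, was lower in every hemizygous library. It had 3044, 2822 and 3059.5 normalized counts in OF1 WT and 1305, 1479 and 1145 in OF1-En1+/- mice. The log2 fold change was -1.18 ± 0.22 with an edgeR adjusted p of 0.444 and a DESeq2 adjusted p of 0.00108. Plxna2, a related receptor, had 3506, 1795 and 2519 and 945, 860.4 and 1324, and Slit2, a secreted repellent of axons, 1564, 618 and 1785 and 176, 284 and 39.4. In these 3 genes SW7 lay on the side of the other WT libraries, which for Plxna4 and Slit2 was a condition of their choice. Sema3a, a secreted ligand of plexins, did not share this, with 5118, 44.4 and 3919 in WT and 31.7, 126 and 67.5 in hemizygous mice. Of the 77 axon guidance genes, 56 were lower, and the median log2 fold change was -0.43. The groups did not overlap in 14 genes in this direction and 2 in the other, beside 8.04% and 7.68% of all tested genes. DESeq2 called 9 lower and 0 higher, beside 0.578% and 0.675% of all genes with an adjusted p. The calls lower were 2 without SWG, 4 without SW21 and without SWB, 5 without SW31 and 12 without SW7. The study picked this process from its calls on these libraries.

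The remaining lower genes named for a small p include signalling and trafficking adaptors. Smap2, a GTPase-activating protein for Arf at the trans-Golgi, had 1277, 1287 and 1297 normalized counts in OF1 WT and 773, 709 and 717 in OF1-En1+/- mice. The log2 fold change was -0.81 ± 0.17 with a DESeq2 adjusted p of 0.00108. Grb2, the adaptor that links receptor tyrosine kinases to Ras, had 1862, 2044 and 2032 and 1093, 1325 and 1189, a log2 fold change of -0.71 ± 0.16 with a DESeq2 adjusted p of 0.00252. In both, the 3 WT libraries were close to each other, SW7 included. Dact1, a Dishevelled-binding regulator of Wnt signalling, had 245, 184 and 339 and 49.3, 27.9 and 13.5, a log2 fold change of -3.08 ± 0.61 with a DESeq2 adjusted p of 0.00044.

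Gse1, a coiled-coil protein, had 406, 349.6 and 547 normalized counts in OF1 WT and 52.8, 163 and 107 in OF1-En1+/- mice, a log2 fold change of -2.01 ± 0.44. Tll2, a tolloid-like metalloprotease, had 496, 74.8 and 567 and 0, 11.6 and 19.1. Slc7a14, a lysosomal membrane transporter of the amino acid transporter family, had 3098, 1749 and 2441 and 595, 567 and 472. AA414768, a gene without an assigned name, had 168, 154 and 272 and 66.9, 32.6 and 29.3. In Tll2 the WT library SW7 was well below SW31 and SWG but above every hemizygous library.

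**Figure D3:**
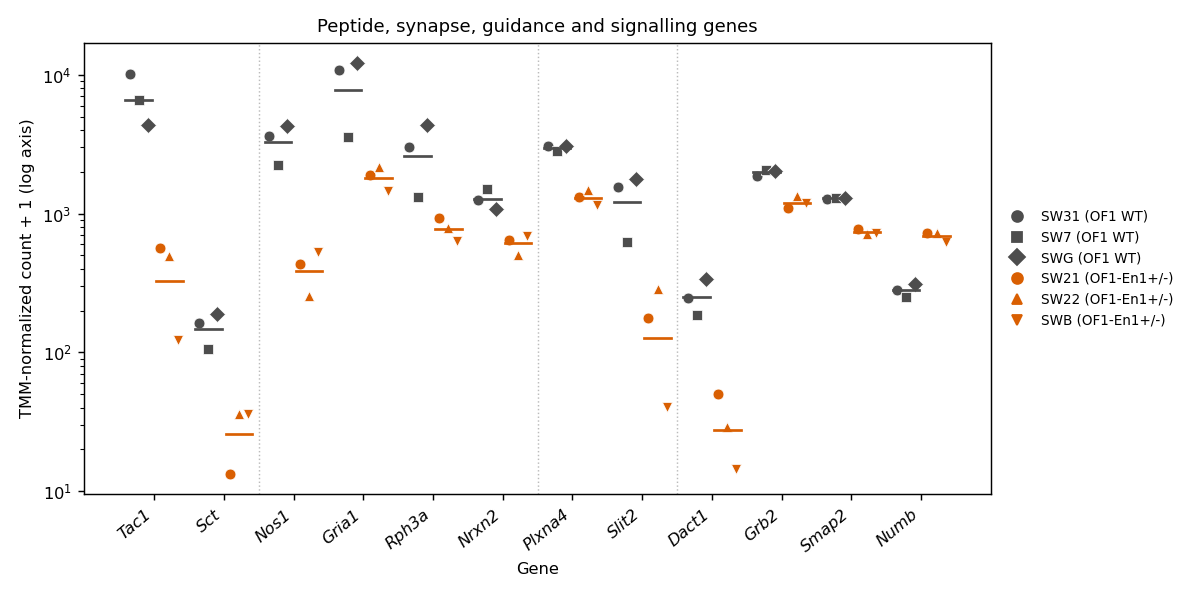
Normalized counts (plus 1, log axis) of 11 genes that were lower in OF1-En1+/- mice and of Numb, which was higher, in each OF1 library, with grey symbols for OF1 WT and orange for OF1-En1+/-, and lines for the means on the log scale. In all 12 genes the groups do not overlap, which was a condition of their choice. Smap2, Grb2, Plxna4 and Numb show little spread within groups.

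Other signalling pathways had few DESeq2 calls. The 58 Wnt genes had a median log2 fold change of 0.06 and 1 DESeq2 call, Dact1, and the 50 TGF-beta and BMP genes 0.27 and 0 calls. Without SWB the Wnt median was -0.19, and without SWG the TGF-beta and BMP median was 0.06. Id3, a BMP target, had 1225, 1405 and 1026 normalized counts in OF1 WT and 1505, 2609 and 2876 in OF1-En1+/- mice. Inhbb, the activin beta B subunit, had 18.9, 29.2 and 66.6 and 238, 191 and 296. Neither gene overlapped between the groups, and their DESeq2 adjusted p were 0.0782 and 0.0593. Of 37 immediate early genes, DESeq2 called Ccn2 higher and Rhob and Btg1 lower, and the median was 0.14. The shares called over all genes with an adjusted p, beside these lists, were 0.675% higher and 0.578% lower. Rhob, a small GTPase, had 458, 693 and 569 and 305, 305 and 322.

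Actin genes, another process that the study named from its calls, were split evenly, with 51 higher and 50 lower of 101 and a median of 0.02. DESeq2 called 3 higher, Arhgap18, Pdlim5 and Tpm4, and 3 lower, Sptb, Rhob and Fnbp1l. Over all genes with an adjusted p the shares were 0.675% and 0.578%. Without SWG or without SWB, DESeq2 called 0 in this list. Tpm4, a tropomyosin, had 1336, 2133 and 968 normalized counts in OF1 WT and 2924, 2988 and 2985 in OF1-En1+/- mice. Sptb, a spectrin of the membrane skeleton, had 1921, 1074 and 1707 and 947, 579 and 519, and Fnbp1l, a membrane-bending activator of actin assembly, 2479.9, 3025 and 2855 and 1019, 1095 and 1267.

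Most glial markers had higher values in hemizygous mice, and none of them passed the test. Of 21 oligodendrocyte markers, 17 were higher in hemizygous mice, and the median log2 fold change was 0.58. That median was 0.28 without SWG and 0.27 without SW21. The groups did not overlap in 8 in this direction, beside 7.68% of all tested genes. Bcas1, a marker of newly myelinating cells, had 1121, 2619 and 2272 normalized counts in OF1 WT and 5829, 5467 and 4658 in OF1-En1+/- mice, with a DESeq2 adjusted p of 0.0782. Mbp, the major myelin basic protein, had 18896, 16584 and 9299.5 and 63869, 26085 and 31194, and Enpp6, an enzyme of newly formed oligodendrocytes, 373, 276 and 514 and 1422, 1149 and 1303. The summed level of the list was 54214, 51735 and 31629.8 in WT and 134662, 73362 and 74675 in hemizygous libraries, with SW21 the highest. Astrocyte markers had a median of 0.25, 18 of 22 being higher, and oligodendrocyte precursor markers 0.26. Without SW21 these medians were 0.11 and 0.12. DESeq2 called 0 in these 3 lists.

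Genes of basic cell functions differed little. The 81 cytosolic ribosomal protein genes had a median log2 fold change of -0.23, 0.07 without SW7 and -0.40 without SW31. Although 71 of them were lower, the groups overlapped in all 81. Of 78 listed nuclear genes of oxidative phosphorylation, 63 were found by name in the annotation and tested. Of these, 51 were lower and 12 higher, and DESeq2 called 0. Their median was -0.18, -0.01 without SW22 and -0.31 without SW21. Medians were 0.01 for proteasome subunits, -0.00 for glycolysis, 0.06 for heat shock and chaperones and 0.00 for cholesterol genes. Lrp1, a lipoprotein receptor, was the cholesterol gene called lower, at 8058, 5550.0 and 9418 normalized counts in WT and 3973, 4216 and 3080.3 in hemizygous mice. Lcat, an enzyme that esterifies cholesterol on lipoproteins, was the one called higher, at 70.8, 76.0 and 98.8 and 294, 267 and 293. The shares that DESeq2 called over all genes with an adjusted p were 0.578% lower and 0.675% higher.

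**Figure D4:**
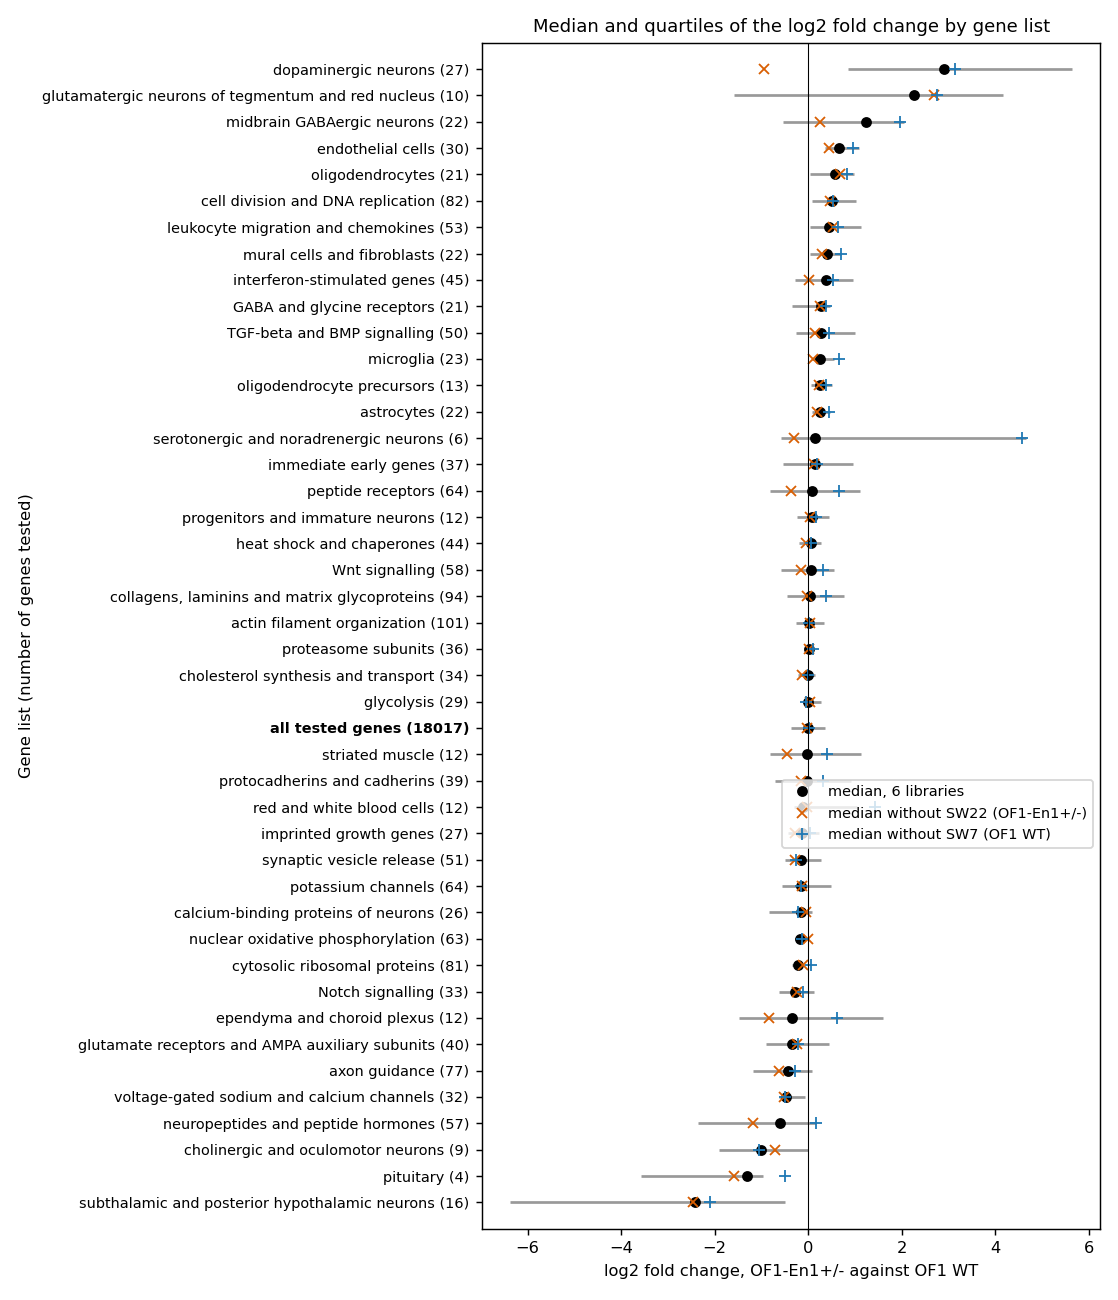
Median (black points) and quartiles (grey lines) of the log2 fold change of OF1-En1+/- against OF1 WT mice for each gene list and for all tested genes (bold label), with medians without SW22 (orange) and without SW7 (blue). Endothelial, cell division and leukocyte migration lists stay above 0 in all 3 versions, whereas the dopaminergic list goes from 2.90 to -0.95 without SW22.

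The same genes can be set beside the C57 strain, in which the comparison rests on 6 other mice. Neuron markers differed between the C57 groups too. In C57 mice the dopaminergic list had a median of -2.47, with 25 of 27 lower in C57-En1+/-. The cholinergic and oculomotor list had 4.90, with 8 of 9 higher. The depth was 61433970 to 168741283 estimated reads in C57 WT and 20030280 to 37754338 in C57-En1+/- libraries. The part of these differences in the values below was not tested. The interaction of genotype and strain, which tests whether the genotype difference differs between the strains, gave 0 calls with edgeR, 1301 genes at an unadjusted p under 0.05 and 33 calls with DESeq2. For Nos1 the log2 fold change was -3.06 ± 0.55 in OF1 mice and 0.14 ± 0.51 (SE) in C57 mice, with an interaction adjusted p of 0.655 in edgeR and 0.0103 in DESeq2. Numb had 1.32 ± 0.27 and 0.09 ± 0.26, with 0.655 and 0.213. Plxna4 had -1.18 ± 0.22 and -0.03 ± 0.22, with 0.655 and 0.139. Bdkrb2 had opposite signs, -2.31 ± 0.46 and 0.94 ± 0.44, with 0.655 and 0.00343.

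Aplnr, Slco1c1, Car4 and Nos3, described above, had the same sign in both strains. Aplnr had a log2 fold change of 1.07 ± 0.40 in C57 mice, Slco1c1 0.85 ± 0.26, Car4 1.01 ± 0.38 and Nos3 0.56 ± 0.27. The endothelial list had a median of 0.56 in C57 mice, with 28 of 30 higher, beside 0.00 over all genes. Ppic had 1.18 ± 0.23 in OF1 mice and 0.88 ± 0.23 in C57 mice. The cell division list had a C57 median of 0.23 and the leukocyte migration list 0.22. The ribosomal list, at -0.23 in OF1, was at 0.72 in C57 mice.

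**Figure D5:**
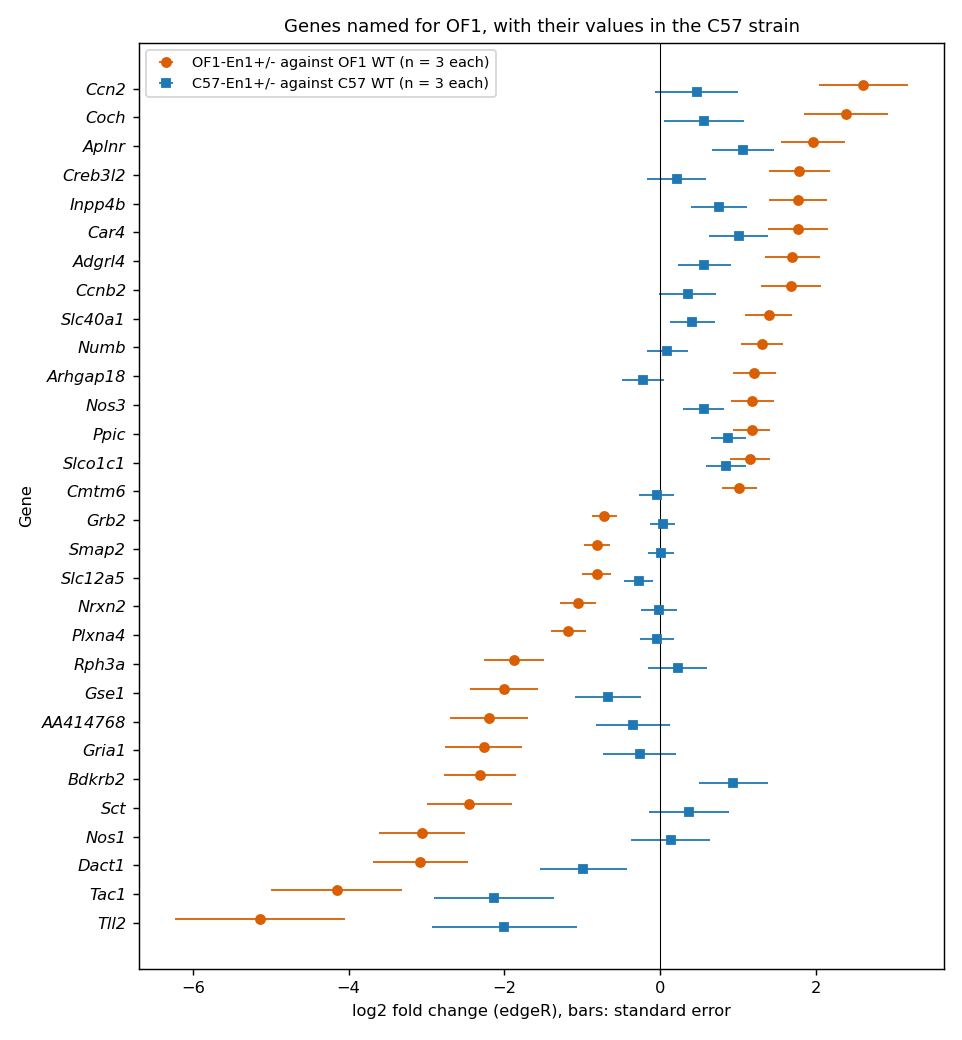
Log2 fold changes with standard errors for 30 protein-coding genes (15 in each direction), with OF1 values as orange circles and C57 values as blue squares (n = 3 mice per group). They had the smallest edgeR p in OF1 mice among those with no overlap between the OF1 groups and an OF1 mean of at least 50. Genes were chosen on the OF1 values. Aplnr, Car4, Ppic and Slco1c1 are above 0 in both strains. Nos1, Sct, Rph3a, Grb2 and Bdkrb2 are below 0 in OF1 and above 0 in C57 mice. The C57 values of Nos1, Rph3a and Grb2 lie within their standard error of 0.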

How the data were processed

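RNA of laser-captured SNpc from 6 OF1 mice (3 OF1 WT, 3 OF1-En1+/-) was analysed, with 6 C57 mice in the same fit. The authors quantified transcripts with Salmon against GRCm39, with correction for GC bias, from paired-end SMART-Seq v4 libraries and deposited, for each transcript and library, an estimated count of reads and a TPM value. The TPM values deposited are shares of transcripts corrected for length, with the same sum in each library. Estimated counts need not be whole numbers.

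Transcripts were matched by identifier to the GENCODE vM39 annotation of GRCm39 (139555 of 140790, 99.1%, in 54193 genes), and the counts were summed per gene and rounded. The test was the robust quasi-likelihood F test of edgeR 4.0.16 (R 4.3.3), run on the 18017 genes whose normalized counts averaged 10 or more across all libraries, with TMM factors and 1 mean per group. Adjusted p are by Benjamini-Hochberg over all tested genes, with a threshold of 0.05. Normalized counts are scaled to the geometric mean of the effective library sizes. Log2 fold changes are not shrunken. The tests measure the spread between mice within groups of 3. That spread was estimated per gene over all groups together, C57 included, and moderated across genes. It is therefore not the spread of the OF1 mice alone. The labels give each library its own mouse. Each pair of libraries within a group differed beyond the noise of sampling reads. Separate preparations of the same tissue can also differ beyond that noise, so this check cannot exclude them. The fit was tested on simulated data. Promoters were read from RefSeq (GRCm38.p6). Python 3.11.15 was used for tables (pandas 2.3.3, with numpy 2.4.6), for the check of repeats (scipy 1.17.1) and for plots (matplotlib 3.10.9).

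The alternatives were DESeq2 1.42.0, relative log expression factors, no filter, a fit on the 6 OF1 libraries, offsets for transcript length, library sizes without mitochondrial genes, protein-coding genes only, limma 3.58.1 voom with sample quality weights, and leaving out each OF1 library. DESeq2 without each library was added after seeing the data.

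The 43 gene lists and the members were chosen with earlier results of these data known, and lists are described by counts and medians, without a test. Named are En1, Th and Slc6a3, in each direction the 15 protein-coding genes with the smallest edgeR p and the 15 with the smallest DESeq2 adjusted p among those with no overlap between the groups and an OF1 mean of at least 50, up to 4 members of each list with the smallest p and a mean of at least 20, Cck, Anxa1, Nos3 and Sema3a, and up to 4 defining markers of a cell type. Not every gene of the rule is printed. Ccn3, Mmel1, Slc7a14 and further list members outside this rule, such as Esm1, Cldn5, Smc2, Jam2, C5ar1, Nts, Nmbr, Gria2, Gria3, Gria4 and Fnbp1l, were chosen after their values were seen.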

Additional observations from a re-analysis of the deposited data

How the results depend on the processing

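No paired analysis was possible because the labels give the mice no replicate numbers shared between the groups. With edgeR, 0 genes were called between OF1-En1+/- and OF1 WT under every setting except leaving out SW7, which gave 3 (Grik1, a kainate receptor subunit, and the pseudogenes Gm3756 and Gm3226, named after their values were seen). Over the leave-one-out fits the count was thus 0 to 3. DESeq2 called 206, and 50 to 524 on leaving out 1 library, with 50 without SWG, 100 without SW21, 111 without SWB, 310 without SW22 and 524 without SW7. For the interaction of genotype and strain, edgeR called 0 under every setting except leaving out SW7, which gave 1 (Gm3226), so 0 to 1 over the leave-one-out fits. DESeq2 called 33 in the interaction, and 20 to 97 on leaving out 1 library, with 20 without SWG, 83 without SW31 and 97 without SW7.

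Of the 113 genes with values printed, 5 changed direction under at least 1 setting. Over the leave-one-out fits the log2 fold change was -6.61 to 5.67 for En1, -3.13 to 8.18 for Th, -0.95 to 11.52 for Slc6a3, -2.89 to 6.73 for Slc6a4 and -0.94 to 1.43 for Hba-a1, which was 1.16 with voom. The lowest values of En1, Th and Slc6a3 came without SW22, and that of Slc6a4 without SWB. DESeq2 called 78 genes of those printed that edgeR did not. List medians were counted once for each list and setting, so a list can enter several times. Of these medians, 48 moved by more than the spread within groups, against 568 that did not. The leave-one-out fits by DESeq2 were chosen after seeing the data. The cause was not tested. With 3 mice per group, genes near 0 counts had wide errors, and a difference missing the threshold does not show equal levels.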

Other observations

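Some lists not described above had values that turned on single libraries. Red and white blood cell markers had a median log2 fold change of -0.11 and 1.44 without SW7. Hba-a1, an alpha-globin of red blood cells, had 1673, 17736 and 2236 normalized counts in OF1 WT and 7706, 5162 and 2773 in OF1-En1+/- mice, with SW7 the highest. Serotonergic and noradrenergic markers had a median of 0.14 over 6 genes, and Slc6a4, the serotonin transporter, was at 1451 in SWB and at most 12.9 in the other 5 libraries. Gata3, a transcription factor of midbrain GABAergic and serotonergic neurons, was at 1816 in SW22, 5.28 in SW21 and 0 in the other 4. DESeq2 gave Gata3 an adjusted p of 5.1e-09, although it was high in 1 library.

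Interferon-stimulated genes had a median log2 fold change of 0.37 and 0.01 without SW22. Gbp3, a guanylate-binding protein, had 63.7, 83.0 and 63.3 normalized counts in OF1 WT and 165, 158 and 199 in OF1-En1+/- mice, and Ifi27l2a, an interferon-induced gene, had 493, 419 and 544 and 26.4, 88.4 and 40.5. The groups did not overlap in either gene, and the directions were opposite. Imprinted growth genes had a median of -0.14 and 0.04 without SW7, with 17 of 27 lower. Mest, an imprinted hydrolase, had 2062, 3309.9 and 1569 and 815, 1137 and 1137, and Mkrn3, an imprinted ubiquitin ligase that restrains the onset of puberty, 2213, 2176 and 2729.8 and 1403, 1777 and 1396. Both were lower in all 3 hemizygous libraries, and no tool called them with all libraries. Pcdh17, a protocadherin of synapses, had 5783, 11662 and 5609 and 3444, 3183 and 3490.1, with a DESeq2 adjusted p of 0.0311. Matrix genes had a median of 0.05 and 0.38 without SW7, and Spock3, a matrix proteoglycan, had 4191, 2921 and 2816 and 10480.2, 5297 and 5724 with a DESeq2 adjusted p of 0.049. The heavy chain Myh7, a striated muscle myosin, had 1050.0, 1336 and 1589.7 and 211, 386 and 146, with a DESeq2 adjusted p of 0.0184.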
